A study of Mus musculus with 6 samples.

Results

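The SLC25 carriers are the family of proteins that move nucleotides, phosphate, organic acids, amino acids, cofactors and metals across the inner membrane of the mitochondrion. All genes whose symbol is *Slc25a* followed by a number alone were taken, 47 of the 55364 genes listed. Family members known under other names (*Ucp1*, *Ucp2*, *Ucp3*, *Mtch1* and *Mtch2*) and the pseudogene *Slc25a5-ps* were not chosen by this rule. RNA-seq was performed on morulae in 2 groups, control KD and *Yy1* KD, with 3 libraries each. All embryos were BDF1 x BDF1, came from in vitro fertilization, received an siRNA (control or against *Yy1*) in the cytoplasm at the zygote stage and were cultured in KSOM. *Yy1* encodes a zinc finger transcription factor, and the comparison asks how its loss changes transcripts at the morula stage. Each library was made from a pool of whole morulae, so that a lower level cannot be assigned to fewer cells with the transcript or to less transcript per cell. No source says whether the pools came from separate matings or cultures, and p-values therefore measure the spread between these pools.

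Most of these carriers share a fold of membrane-spanning helices built from a repeated unit, and each exchanges or cotransports particular substrates. The ADP/ATP carriers export the ATP made by oxidative phosphorylation and return ADP, and the phosphate carrier supplies the other substrate of ATP synthase. Preimplantation embryos depend on their mitochondria for ATP, mostly from pyruvate until compaction, with a growing use of glucose afterwards.

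Levels are given in TPM, which counts read pairs per exon length and scales each library to a sum of 1000000. Between 11805270 and 24442138 read pairs on genes were recovered per library. Levels of *Yy1* were 96.0, 100.2 and 89.8 TPM in control KD and 8.73, 8.90 and 8.32 TPM in *Yy1* KD morulae, a log2 fold change of -3.32 (limma adjusted p = 6.71e-05). Of 8 markers of cumulus cells, which surround the oocyte, 5 were at 0 in all 6 libraries, including *Fshr* and *Cyp19a1*. The summed level of the 8 markers was 0.610 to 1.06 TPM in control KD and 0.782 to 2.42 TPM in *Yy1* KD libraries. All 10 markers of preimplantation embryos were present, with *Pou5f1* at 649 TPM or more and *Sox2*, the lowest, at 4.02 TPM or more in every library. Of these 10, 8 had a log2 fold change below 0 and 1 was called, *Tfap2c*, a transcription factor of the trophectoderm lineage, which went from a mean of 183 to 126 TPM (limma adjusted p = 0.0174). *Sox2* was at 51.0% and *Cdh1* at 57.4% of the control, without a call. The part of these differences in the levels of the carriers was not tested.

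In control KD morulae, the family summed to 1349, 1386 and 1435 TPM. Its transcripts were concentrated in few genes. Over all 6 libraries, 4 carriers had a mean above 100 TPM, 15 lay between 10 and 100 TPM, 18 between 1 and 10 TPM and 10 under 1 TPM. The 5 highest carriers together held 72.9% of the family's TPM. Their values in control KD morulae spread with a median coefficient of variation of 7.66%, against 11.8% for all carriers that were tested.

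*Slc25a5* (ENSMUSG00000016319.3, chromosome X, 36795651 to 36798807, plus strand, GRCm38), which encodes the ADP/ATP carrier ANT2 of proliferating cells, was the highest, with 37.3% of the family's TPM. Next came *Slc25a44*, a carrier of branched-chain amino acids, with 11.8%, and *Slc25a4*, the ADP/ATP carrier ANT1 of heart and muscle, with 9.45%. *Slc25a3*, the carrier of phosphate and copper, held 7.74% and *Slc25a39*, a carrier of glutathione, 6.65%. In control KD morulae the ranges of *Slc25a44* (145 to 163 TPM) and *Slc25a4* (98.4 to 121 TPM) did not overlap, while those of *Slc25a4*, *Slc25a3* (104 to 116 TPM) and *Slc25a39* (73.0 to 109.8 TPM) did.

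By role, the 9 carriers of adenine nucleotides held 51.2% of the family's TPM in control KD and 50.2% in *Yy1* KD morulae. The 12 carriers of amino acids, carnitine and glutathione held 27.3% and 28.4%. The shares were 8.76% and 8.67% for phosphate and metals, 6.89% and 7.05% for other nucleotides and cofactors, and 3.35% and 3.27% for carboxylates. The order of these roles was the same in both groups.

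**Figure D1:**
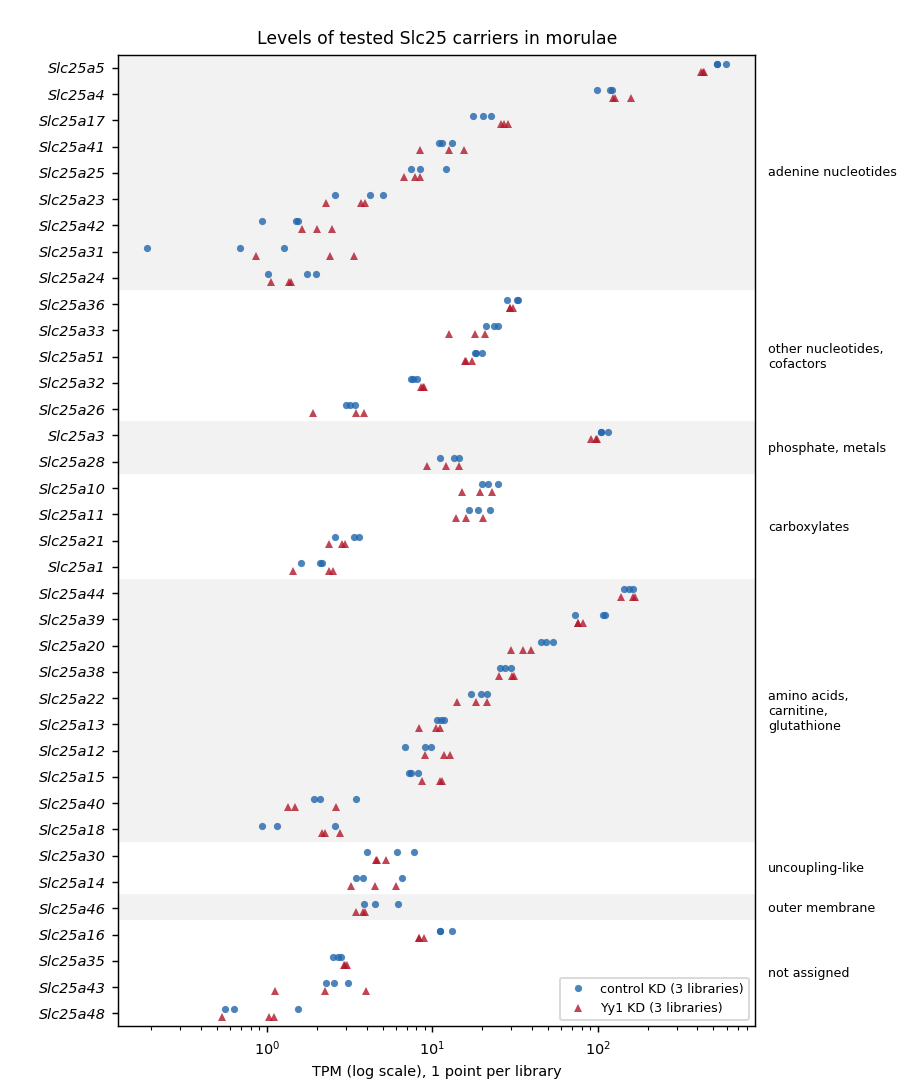
TPM on a log axis of 37 of the 38 tested carriers, grouped by substrate and ordered by level within each group, with 1 point per library (blue circles, control KD; red triangles, *Yy1* KD). *Slc25a5* stood at 419 to 599 TPM, and for most carriers the points of both groups were interleaved.

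A gene was tested when 3 or more of the 6 libraries held it at 1 TPM or above, on log2(TPM + 1) and with limma, a linear model with variances shared across genes, and a gene was called at a Benjamini-Hochberg adjusted p under 0.05. Of the 47 carriers, 38 passed the filter, 0 of them on the values of a single group, and 34 were at 1 TPM or more in all 6 libraries. In *Yy1* KD morulae, 1 carrier, *Slc25a5*, was called lower and 0 were called higher. This is 2.63% of the 38 tested, while 6.11% of all 17353 genes tested were called in either direction, 4.20% lower and 1.92% higher. At an unadjusted p under 0.05, 3 carriers were lower (*Slc25a5*, *Slc25a20* and *Slc25a16*) and 2 higher (*Slc25a17* and *Slc25a15*), together 13.2% of the carriers tested against 23.8% of all genes tested. With limma-voom on the recovered read pairs, 2 were called lower and 0 higher, where 12.3% of all genes were called.

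The changes of the tested carriers were small. Their log2 fold changes lay between -0.49 and 0.86, with 23 below and 15 above 0 and a median of -0.13, beside a median of -0.02 over all genes tested. A change of at least 0.5 in size was found for 1 of 38 carriers (2.63%) and for 23.3% of all genes tested. Among genes with a mean of at least 10 TPM, it was found for 0 of 19 carriers and for 15.9% of 8084 genes. The 95% interval of the log2 fold change lay between -1 and 1 for 36 of the 38 carriers (94.7%) and for 65.5% of all genes tested. The exceptions among the carriers were *Slc25a31* and *Slc25a18*, both near 1 TPM in control KD morulae. For the 36, a change of 2-fold or more on the scale of TPM + 1 was outside the interval. The added 1 makes changes smaller on this scale than in TPM, most of all for carriers of a few TPM. The shares of intervals were not matched for level or type of gene. The median standard error was 0.18 for the carriers and 0.21 for all genes tested. The values of both groups did not overlap for 12 carriers (31.6%), 6 lower and 6 higher, and for 30.1% of all genes tested.

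**Figure D2:**
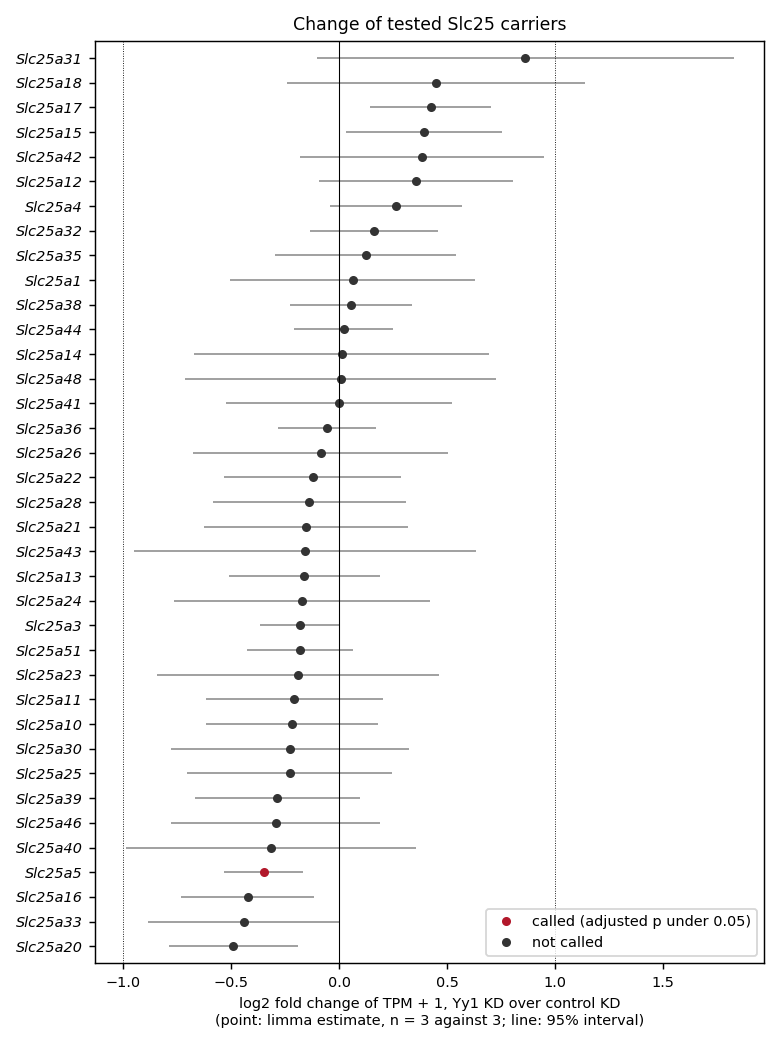
Log2 fold change of TPM + 1 of 37 of the 38 tested carriers in *Yy1* KD over control KD morulae (point: limma estimate, 3 libraries against 3; line: 95% interval; dotted lines at -1 and 1). *Slc25a5*, in red, was the single carrier called, and *Slc25a31* had the widest interval, from -0.10 to 1.83.

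**Figure D3:**
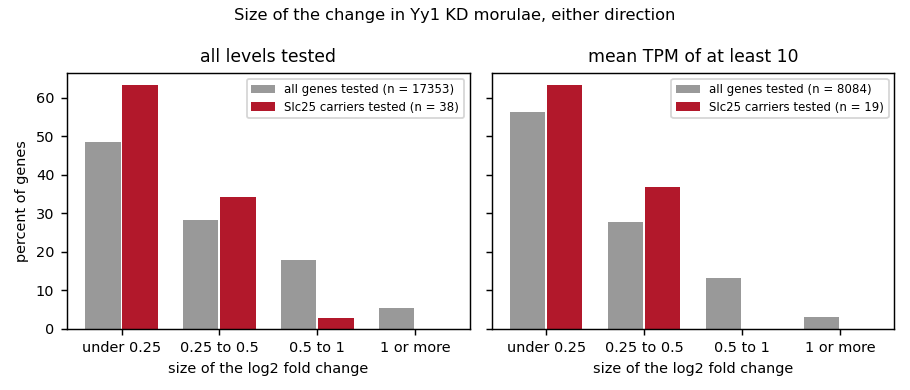
Percent of genes by the size of their log2 fold change in either direction, for all genes tested (grey) and for the tested carriers (red), at all levels on the left and at a mean of at least 10 TPM on the right. Of the 38 carriers, 63.2% had a change under 0.25 in size and 34.2% a change from 0.25 to 0.5.

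*Slc25a5*, the ADP/ATP carrier with the highest transcript level here, was at 524, 527 and 599 TPM in control KD and at 434, 419 and 441 TPM in *Yy1* KD morulae. All 3 *Yy1* KD libraries were below all 3 control KD libraries. The mean went from 549.9 ± 42.1 to 431 ± 11.3 TPM (SD, n = 3 each), or 78.4% of the control. This corresponds to a log2 fold change of -0.35 (standard error 0.08, 95% interval -0.53 to -0.17, limma adjusted p = 0.0484). The call was close to the threshold. Of 17 alternative settings 6 called the gene, with adjusted p from 0.0139 to 0.143 over the 17 and a log2 fold change between -0.39 and -0.29. Among those that did not call it were all 6 fits that left out 1 library, for which the adjusted p was from 0.0893 without control KD replicate 2 to 0.143 without *Yy1* KD replicate 2. No other annotated gene overlaps the exons of *Slc25a5*, and *Slc25a5-ps* was at 0.307 TPM or less in every library.

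*Slc25a4*, on chromosome 8 from 46206797 to 46211284 (minus strand), was at 98.4, 119 and 121 TPM in control KD and at 158, 126 and 123 TPM in *Yy1* KD morulae. Its values in *Yy1* KD libraries were all above those in control KD libraries, by little for replicates 2 and 3. The log2 fold change was 0.26 (95% interval -0.04 to 0.57) and the gene was not called (limma adjusted p = 0.276). It was 0.15 without *Yy1* KD replicate 1 and 0.17 without control KD replicate 1. Together both ADP/ATP carriers summed to 623, 646 and 719.96 TPM in control KD and to 591, 545 and 564 TPM in *Yy1* KD morulae. *Slc25a4* made up 15.8%, 18.4% and 16.9% of this sum in control KD and 26.7%, 23.2% and 21.8% in *Yy1* KD libraries. The log2 ratio of *Slc25a4* to *Slc25a5*, taken on TPM + 1, went from a mean of -2.28 to -1.67. The difference of 0.61 was positive in each of the 9 pairings of a *Yy1* KD with a control KD library. A two-sided exact permutation test gave p = 0.1, below which 3 against 3 cannot go, and 0.4 after Benjamini-Hochberg adjustment over 8 pairs. The annotated transcripts of both genes have no identical run longer than 20 nt.

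**Figure D4:**
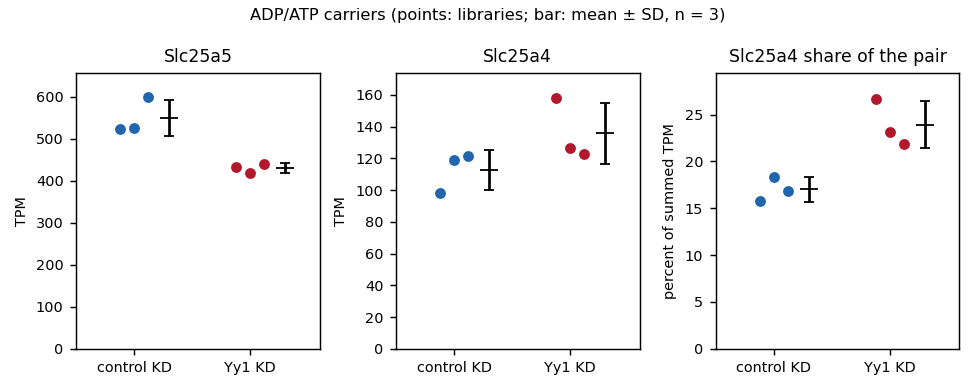
TPM of *Slc25a5* and *Slc25a4* and the percent that *Slc25a4* makes up of their sum, with 1 point per library and the mean ± SD of 3 libraries beside it; all axes start at 0. The share of *Slc25a4* was 15.8% to 18.4% in control KD and 21.8% to 26.7% in *Yy1* KD libraries.

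The consensus bound by YY1 was searched in promoters, from 250 bases before to 50 bases after the start of a gene (RefSeq, GRCm38.p6), which were on hand for 36 of the 47 carriers. The consensus GCCATNTT, or AANATGGC on the other strand, was present for 2 of these 36 carriers (5.56%), *Slc25a3* and *Slc25a14*. Among the 30 of these carriers that were tested, the share was 6.67%. The consensus was present for 6.96% of 27025 genes with a promoter and for 10.4% of 9767 genes tested. It was present for 143 of 517 genes called lower (27.7%) and for 27 of 192 genes called higher (14.1%). Neither carrier was called. The 5 letters GCCAT, or ATGGC, which lie within the consensus, were present for 13 of the 36 carriers (36.1%) and for 44.2% of all genes with a promoter. They were present for 36.7% of the 30 tested carriers and for 43.9% of genes tested, 58.2% of those called lower and 43.2% of those called higher. *Slc25a5* held these letters at 2 places. A match of letters describes the sequence and does not show that YY1 binds there.

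The stretches of 30 bases around these matches are shown because they hold the YY1 consensus of the family and the shorter matches of the single carrier called. They read 5′ to 3′ on the strand of the gene, with the match in capitals. That of *Slc25a3* (chr10:91123918-91123947, minus strand) begins its match 42 bases after the start of the gene, and that of *Slc25a14* (chrX:48623236-48623265, plus strand) 201 bases before it. Those of *Slc25a5* are at chrX:36795534-36795563 and chrX:36795617-36795646 on the plus strand, with matches 51 bases before and 35 bases after the start. These starts are those of RefSeq, which differ from the GENCODE gene boundaries printed for the members, and both matches of *Slc25a5* lie before its GENCODE start at 36795651.
Slc25a3, consensus: cccagcgagcggttgggtgttcGCCATCTT
Slc25a14, consensus: gatatcaaccaAACATGGCatatcaagata
Slc25a5, first match of GCCAT: ctcagcagctctGCCATtccgcgcgccagt
Slc25a5, second match of GCCAT: ccgctatataagtcgGCCATttgctttgct

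The family's sum was 1246, 1214 and 1262 TPM in *Yy1* KD morulae, below each of the control KD values, and 89.2% of them on average. Without *Slc25a5* it went from 840.1 ± 17.2 to 809.5 ± 13.4 TPM (SD, n = 3 each), 96.4% of the control, also without overlap of the groups. Both sums are a description over the members.

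*Slc25a5* lies on the X chromosome and the labels do not give the sex of the pooled embryos. *Xist*, the RNA that coats the inactive X, was at 49.7, 28.2 and 84.2 TPM in control KD and at 26.4, 30.1 and 58.5 TPM in *Yy1* KD libraries. Of the Y-linked genes, *Ddx3y* was at 18.1, 30.5 and 17.8 TPM in control KD and at 5.04, 5.14 and 3.55 TPM in *Yy1* KD libraries and was called lower (limma adjusted p = 0.0126), while *Uty*, at 21.7% of the control without overlap of the groups (log2 fold change -0.88), and *Eif2s3y*, at 64.3% with overlap (-0.51), were not called. *Kdm5d*, which was not tested, was at 66.5% of the control, so that the means of all 4 Y-linked genes were lower in *Yy1* KD libraries. The mean of *Xist* was lower as well, at 71.0% of the control, with overlap of the groups and without a call. Over the 518 X-linked genes tested the median log2 fold change was -0.0021. The X-linked carriers *Slc25a14* (0.01) and *Slc25a43* (-0.16) were not called, and *Slc25a53* was not tested. The part of the sex of the pools in the level of *Slc25a5* was not tested.

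Among the other carriers of adenine nucleotides, *Slc25a17*, the carrier of coenzyme A and nucleotides in the peroxisome membrane, was at 20.3, 17.6 and 22.5 TPM in control KD and at 25.9, 28.5 and 27.2 TPM in *Yy1* KD morulae. The groups did not overlap. The log2 fold change was 0.42 (95% interval 0.14 to 0.70), without a call (limma adjusted p = 0.0877), and it was called when protein-coding genes alone were tested (adjusted p = 0.0393), a setting in which 16.3% of all genes were called. *Slc25a42*, the mitochondrial carrier of coenzyme A, went from 1.33 ± 0.34 to 2.03 ± 0.416 TPM (SD, n = 3 each), without overlap of the groups and without a call. The ATP-Mg/phosphate carriers *Slc25a23*, *Slc25a24*, *Slc25a25* and *Slc25a41*, which set the pool of adenine nucleotides in the matrix, had log2 fold changes of -0.19, -0.17, -0.23 and -0.00081, and none was called.

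*Slc25a31*, the ADP/ATP carrier of sperm, had the largest change of the family on the log2 scale and is named here after its values were seen. Its level was 1.27, 0.683 and 0.189 TPM in control KD and 3.34, 2.39 and 0.854 TPM in *Yy1* KD morulae. The groups overlapped, and the values rested on 32.0 recovered read pairs in the 3 control KD libraries and 92.1 in the 3 *Yy1* KD libraries. The log2 fold change was 0.86 (95% interval -0.10 to 1.83), which was not called (limma adjusted p = 0.257).

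Of the carriers of amino acids, carnitine and glutathione, 10 of 12 were tested and 0 were called by limma, with 5 below and 5 above 0. With 6.11% of all genes tested called, 0 calls do not set so few genes apart. *Slc25a20*, which exchanges carnitine for acylcarnitine and so admits fatty acids to oxidation, was at 53.6, 48.4 and 45.4 TPM in control KD and at 35.5, 29.7 and 39.3 TPM in *Yy1* KD morulae. The groups did not overlap and the mean was 70.9% of the control. The log2 fold change was -0.49 (95% interval -0.79 to -0.19), the lowest of the family, with a limma adjusted p of 0.0716. It was called with limma-voom (adjusted p = 0.0206) and among protein-coding genes alone (adjusted p = 0.0252).

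*Slc25a15*, the ornithine carrier of the urea cycle, was at 7.41, 7.26 and 8.24 TPM in control KD and at 11.1, 8.67 and 11.4 TPM in *Yy1* KD morulae, without overlap and without a call (log2 fold change 0.39, limma adjusted p = 0.177). *Slc25a44* was at 163, 153 and 145 TPM in control KD and at 138, 169 and 162 TPM in *Yy1* KD morulae. Its groups overlapped, and the 95% interval of its log2 fold change was -0.21 to 0.25. *Slc25a39* was at 73.0, 109.8 and 108 TPM in control KD and at 76.3, 81.7 and 76.1 TPM in *Yy1* KD morulae, with 1 control KD library below all *Yy1* KD libraries. *Slc25a38*, the glycine carrier that feeds heme synthesis, had a log2 fold change of 0.06 (95% interval -0.23 to 0.34).

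The carriers of phosphate and metals and of other nucleotides and cofactors included 8 tested genes, of which 0 were called by limma. This is too few genes to differ from the 6.11% called among all genes tested. *Slc25a3*, *Slc25a33*, *Slc25a36*, *Slc25a51* and *Slc25a32* were followed across the other settings and not called by any of them. *Slc25a3* was at 116, 105 and 104 TPM in control KD and at 96.9, 98.5 and 90.5 TPM in *Yy1* KD morulae. The groups did not overlap, and the log2 fold change of -0.18 did not lead to a call (limma adjusted p = 0.219). *Slc25a33*, a carrier of pyrimidine nucleotides, was at 21.0, 24.8 and 23.7 TPM in control KD and at 18.1, 12.5 and 20.7 TPM in *Yy1* KD morulae (log2 fold change -0.44, limma adjusted p = 0.213), without overlap of the groups. Without *Yy1* KD replicate 2 the log2 fold change was -0.25. Its counterpart *Slc25a36* had a log2 fold change of -0.06. *Slc25a51*, which brings NAD into the matrix, was at 18.8 ± 1.07 and 16.4 ± 0.822 TPM (SD, n = 3 each), and *Slc25a32*, a carrier of folate and FAD, at 7.73 ± 0.293 and 8.76 ± 0.155 TPM, without overlap of the groups for either gene and without a call. The S-adenosylmethionine carrier *Slc25a26* (-0.09) and the iron carrier *Slc25a28* (-0.14) had overlapping groups.

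The 4 carriers of carboxylates, which link the TCA cycle to the cytosol, had overlapping groups and log2 fold changes from -0.22 to 0.06. They were *Slc25a10* for dicarboxylates, *Slc25a11* for oxoglutarate, *Slc25a21* for oxodicarboxylates and *Slc25a1* for citrate. *Slc25a1* stood at 1.95 ± 0.297 TPM and *Slc25a10* at 22.2 ± 2.51 TPM in control KD morulae (SD, n = 3 each). Of the uncoupling-like carriers, *Slc25a14* was at 4.58 ± 1.68 and 4.59 ± 1.42 TPM and *Slc25a30* at 5.95 ± 1.85 and 4.80 ± 0.359 TPM (SD, n = 3 each). Neither was called. *Slc25a46*, a protein of the outer membrane that takes part in mitochondrial fission, had a log2 fold change of -0.29 with overlapping groups. Among carriers given no substrate here, *Slc25a16* was at 11.1, 13.2 and 11.1 TPM in control KD and at 8.88, 8.28 and 8.33 TPM in *Yy1* KD morulae, without overlap (log2 fold change -0.42, limma adjusted p = 0.109). *Slc25a35* was at 2.50, 2.79 and 2.70 TPM in control KD and at 3.06, 2.97 and 2.94 TPM in *Yy1* KD morulae, without overlap (log2 fold change 0.12). *Slc25a43* and *Slc25a48* (0.0078) were under 5 TPM and had overlapping groups. None of these 3 was called.

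Related carriers were compared within each library as the log2 ratio of their levels, with 1 TPM added to each level. This was done for 10 pairs, of which 8 had both members tested. The ratio of *Slc25a18* to *Slc25a22*, the glutamate carriers, did not overlap between the groups, like that of *Slc25a4* to *Slc25a5*. *Slc25a18* made up 10.8%, 5.20% and 5.54% of its pair in control KD and 10.9%, 13.2% and 11.3% in *Yy1* KD libraries (difference of the log2 ratio 0.57, two-sided exact permutation test p = 0.1, adjusted p = 0.4). *Slc25a18* stood at 2.75 TPM or less and shares exonic sequence with *Atp6v1e1*. With 0.1 TPM added instead of 1, the difference of this pair was 0.83, so that its size depends on the added value. The other 6 pairs overlapped, with differences of 0.52 for the aspartate/glutamate carriers *Slc25a12* and *Slc25a13*, -0.39 for *Slc25a33* and *Slc25a36* (-0.17 without *Yy1* KD replicate 2), 0.24 for *Slc25a14* and *Slc25a30*, 0.03 for *Slc25a39* and *Slc25a40*, -0.02 for *Slc25a23* and *Slc25a24* and -0.01 for *Slc25a10* and *Slc25a11* (exact permutation p from 0.2 to 1).

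These pairs differed in how evenly they were used. *Slc25a39* made up 97.5% of its pair and the iron carrier *Slc25a28* made up 96.5% of its pair with *Slc25a37* in control KD morulae. *Slc25a2* made up 5.40% of its pair with *Slc25a15*. *Slc25a10* was at 53.5% and *Slc25a12* at 42.9% of their pairs, so that both members were present at similar levels.

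The 9 carriers that were not tested had a mean of 0.656 TPM or less. *Slc25a54* was listed at 0 in all 6 libraries. *Slc25a27*, an uncoupling-like carrier known from the brain, had 0.5 recovered read pairs in control KD and 4.0 in *Yy1* KD libraries in all. *Slc25a2*, *Slc25a34*, *Slc25a37*, *Slc25a45*, *Slc25a47* and *Slc25a53* had overlapping groups and values of 1.35 TPM or less. The filter on TPM left these genes out, so that their changes were not tested with it.

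*Slc25a29*, a carrier of basic amino acids, is the member closest to *Yy1*. It lies on chromosome 12 from 108825873 to 108835883 on the minus strand, 5724 bases after the end of *Yy1*, which is on the plus strand. Read pairs were counted without regard to strand. The gene had 5.0, 7.0 and 3.0 recovered read pairs in control KD and 0.5, 0 and 0 in *Yy1* KD libraries, that is 0.371, 0.26 and 0.154 TPM against 0.0248, 0 and 0 TPM. The groups did not overlap, but with 3 to 7 pairs per control KD library the level was at the limit of what these libraries can show. *Slc25a47*, which begins 162 bases further on the plus strand, was at 0.259, 0.844 and 0.404 TPM in control KD and at 0.649, 0.122 and 1.35 TPM in *Yy1* KD libraries, with overlapping groups.

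The members were spread over 19 chromosomes, and 3 further pairs of members lay close to each other. Other genes between them were not looked for. Exonic sequence was shared with another annotated gene for 14 of the 47, among them *Slc25a10*, *Slc25a11*, *Slc25a33* and *Slc25a51*, whose read pairs may have been divided. *Slc25a43* and *Slc25a5* on the X chromosome are separated by 18448 bases, *Slc25a54* and *Slc25a24* on chromosome 3 by 6461 bases, and *Slc25a41* and *Slc25a23* on chromosome 17 by 2056 bases. *Slc25a5* was at 549.9 TPM and *Slc25a43* at 2.64 ± 0.41 TPM (SD, n = 3) in control KD morulae.

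Other mitochondrial carriers and channels were described beside the members, from a list of 29 genes. It holds uncoupling proteins, the pyruvate carrier, sideroflexins, the calcium uniporter, porins and ABC transporters. The list is not fully separate from the family, because it includes *Ucp1*, *Ucp2*, *Ucp3*, *Mtch1* and *Mtch2*. Of 23 tested, 2 were called lower and 0 higher (8.7%, against 6.11% of all genes), with a median log2 fold change of -0.07. *Sfxn1*, a serine transporter, was at 3.10, 3.25 and 2.97 TPM in control KD and at 0.840, 0.721 and 1.09 TPM in *Yy1* KD morulae (log2 fold change -1.13, limma adjusted p = 0.0308). When 1 library was left out, *Sfxn1* was called in 0 of 6 fits. Of the 23, 17 were below and 6 above 0. The groups did not overlap for 8 (34.8%, against 30.1% of all genes tested), 7 lower and 1 higher. Among the lower were *Abcb6* (log2 fold change -0.93), *Slc8b1* (-0.64) and *Vdac2* (-0.36). These were not called in the main fit but were called with limma-voom. Both subunits of the pyruvate carrier, *Mpc1* and *Mpc2*, had log2 fold changes of -0.0026 and -0.02 and were not called.

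Carriers reach the inner membrane through the receptor TOM70, the small TIM chaperones and the TIM22 complex. Of the 13 genes listed for this route, all were tested, with 3 below and 10 above 0 and a median log2 fold change of 0.12. With limma 0 were called, beside 6.11% of all genes tested, which does not set so few genes apart. At an unadjusted p under 0.05 were 3 of them (23.1%), a share like that of all genes tested (23.8%). Of these, *Tomm20* (log2 fold change 0.23) and *Tomm70a* (0.25) were higher in *Yy1* KD morulae and *Timm8b* (-0.47) was lower. *Tomm20* was called with limma-voom. The intervals of all 13 lay between -1 and 1, as did those of 65.5% of all genes tested. The median standard error was 0.11 for the 13 and 0.21 for all genes tested.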

How the data were processed

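RNA-seq libraries (SMART-Seq Stranded kit) of 3 control KD and 3 *Yy1* KD pools of morulae were grouped by their titles. The authors trimmed reads with Trim Galore 0.6.7, aligned them to mm10 with HISAT2 2.2.1, removed ribosomal RNA with bedtools, counted read pairs on GENCODE vM25 genes with featureCounts 2.0.1 (pairs on several genes divided, strand ignored, multi-mapped reads not requested) and deposited TPM per gene and library, in which a gene's value depends on all others. The tools and versions follow the submitters' processing notes and the study's methods.

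TPM of at least 1 in at least 3 libraries was required, and log2(TPM + 1) was tested over all genes with limma 3.58.1 (R 4.3.3) with a variance trend and without covariates. The added 1 makes fold changes of low genes smaller than they are. The authors used edgeR on read counts, which TPM does not allow. Intervals are limma's 95% intervals. The test was checked on simulated libraries. Read pairs were recovered by multiplying TPM by exon length of GENCODE vM21 (same assembly, 46 of 47 members with the same gene version), scaled so that low values were whole. Between 89.0% and 90.9% of values up to 20 pairs in genes without overlap lay within 0.02 of a whole number. Depth limits the precision of genes near 1 TPM.

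Named genes were *Yy1*, called members, the 10 members with the highest mean TPM, members with a log2 fold change of at least 0.5 in size and groups that do not overlap, both members of each pair, and called genes of the lists. Other members were named to account for all, and further genes of the lists after their values were seen. Members and lists were chosen with earlier results of these data known. Alternatives were another pseudocount (0.1), filter (none, or a mean TPM of at least 5), scaling (median-ratio, quantile), variance model, weights, replicate block and leaving out each library, and, chosen after seeing the data, limma-voom and protein-coding genes alone. Promoters came from RefSeq (GRCm38.p6). Protein sequences were not used here. The values of 1 member and of 1 gene of the lists are not reported here, but both are part of the counts and sums.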

Additional observations from a re-analysis of the deposited data

How the results depend on the processing

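*Yy1* kept its direction and its call in every setting run, with a log2 fold change from -3.45 to -3.26 (-3.36 to -3.28 when 1 library was left out). The single call of the family did not hold throughout. The number of carriers called lower was 1, and it was 0 without a filter, with median-ratio scaling, with quantile normalization, without a variance trend and when any library was left out (0 to 0), and 2 with limma-voom and among protein-coding genes alone, where 1 carrier was also called higher. The log2 fold change of *Slc25a5* stayed negative in all of these. Fewer libraries also lowered the calls over all genes, from 1061 to between 73 (without control KD replicate 3) and 412, and calls were 347 without a filter, 514 without a variance trend, 2089 with limma-voom and 1823 among protein-coding genes alone. Other carriers and channels called were 2, and were 1 without a filter, 5 with limma-voom, 4 among protein-coding genes and 0 to 1 when a library was left out. Carrier import genes called were 0, and 1 with limma-voom. The cause of these moves was not tested, except that fewer libraries or other sets of genes were fitted by construction.

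Replicate numbers are shared between the groups. Deviations of same-numbered libraries from the means of their groups had correlations across genes of -0.00388, 0.0319 and 0.0747. The last was the highest of all pairings, and those of libraries with different numbers were from -0.0713 to 0.0411. With 3 libraries per group, these values cannot tell whether same-numbered pools shared a mating or culture, which was not tested. With a replicate block 287 genes were called in all, 0 carriers lower and 1 gene of the other carriers and channels. Not every library correlated best with its own number.

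Small values changed sign. *Slc25a36* was 0.014 with quantile normalization. With 1 library left out, *Slc25a44* was from -0.034 to 0.11 and *Slc25a38* from -0.0016 to 0.15. The difference of the log2 ratio was 0.020 for *Slc25a23* and *Slc25a24* with a pseudocount of 0.1. With 1 library left out it was -0.35 to 0.31 for this pair, -0.12 to 0.25 for *Slc25a39* and *Slc25a40*, -0.031 to 0.44 for *Slc25a14* and *Slc25a30* and -0.26 to 0.11 for *Slc25a10* and *Slc25a11*. It was -0.54 to -0.17 for *Slc25a33* and *Slc25a36*, 0.50 to 0.69 for *Slc25a4* and *Slc25a5* and 0.46 to 0.77 for *Slc25a18* and *Slc25a22*.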
